A study of Mus musculus with 6 samples.

Results

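The genes described here are 8 markers of Schwann cells and myelin, Mbp, Pmp22, Prx, S100b, Sox10, Mag, Cnp and Mal. They were listed by symbol and not by a rule on measured values, but with earlier results of these data known. All 8 had a row among the 16289 genes of the deposited count table, and all 8 passed the filter on low counts. The libraries were RNA-seq of the tibialis anterior, which lifts the foot, from wild-type male C57BL/6J mice aged 12 weeks. All mice had received glycerol, which destroys muscle fibres, into that muscle, and the tissue was taken after 14 days. One group of 3 biological replicates received melatonin, the hormone of the pineal gland, as well (glycerol+melatonin), and the other group of 3 a control treatment (glycerol). The sources used here do not describe the dose or route of melatonin, and their extraction text names longissimus dorsi, a back muscle, while the tissue label names the tibialis anterior.

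Schwann cells are the glia of peripheral nerves. Those that wrap large axons build myelin, a stack of membrane held together by proteins such as Pmp22 and Mbp, under the control of the transcription factors Sox10 and Egr2. After nerve damage they switch off myelin genes and turn to a repair state marked by Jun, Gdnf and Artn. In a whole muscle these transcripts can come from the nerve branches and nerve endings that remain in the piece. Several of the 8 genes are also used by other cells, and the share of each source was not tested. In such bulk tissue fewer Schwann cells and less RNA per cell cannot be told apart.

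Total counts ran from 41204718 to 47945178 in glycerol+melatonin libraries and from 39310361 to 48879045 in glycerol libraries. Together the 8 genes drew 4540 to 6012 counts per glycerol+melatonin library and 5145 to 5939 counts per glycerol library. Levels are given as CPM, counts per 1000000 counts of a library whose size was corrected by TMM, edgeR's factors for the make-up of a library. Markers of muscle were plentiful, though they do not tell one muscle from another: muscle fibre genes (Acta1, Ckm, Myh4 and others, 7 of 7 with a row) summed to 72715 to 112511 CPM in glycerol+melatonin and 103990 to 126446 CPM in glycerol libraries. The Schwann cell markers Mbp, Prx, Mag, Sox10, Cdh19 and Erbb3 had counts in every library. Of 5 genes listed as restricted to oligodendrocytes, the myelin-forming cells of the brain, Mog, Mobp, Opalin and Ermn had no row, and only Aspa, which other tissues also express, had one. Of 5 melanocyte genes, a pigment lineage that shares Sox10, Dct, Tyr, Tyrp1 and Mlana had no row, and Pmel was at 0.343, 0.461 and 0.660 CPM in glycerol+melatonin and 0.544, 0.553 and 0.857 CPM in glycerol libraries.

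Promoter windows of RefSeq (GRCm38.p6) were matched by symbol for 6 of the 8 genes (Mal, Pmp22, Mag, Cnp, Prx and S100b; not Mbp and Sox10), 11 windows in all, each from 250 bases before to 50 bases after a transcript start. Those of Mal and Pmp22 are shown because the groups did not overlap for these genes, and those of Mag and Cnp because they hold SOX letters. Of the 4 Pmp22 windows the one with the lowest coordinate is shown, and of the 3 Mag windows the one with the lower coordinate of the pair that holds the match. The other Mag window and all 4 Pmp22 windows hold none. The letters searched on both strands were ACAAAG and ACAATG for SOX factors and GCGNGGGCG for EGR factors, and matches are in capitals. No EGR match was found in these windows, so no motifs overlapped.
Mal, chr2:127656646-127656945, minus strand: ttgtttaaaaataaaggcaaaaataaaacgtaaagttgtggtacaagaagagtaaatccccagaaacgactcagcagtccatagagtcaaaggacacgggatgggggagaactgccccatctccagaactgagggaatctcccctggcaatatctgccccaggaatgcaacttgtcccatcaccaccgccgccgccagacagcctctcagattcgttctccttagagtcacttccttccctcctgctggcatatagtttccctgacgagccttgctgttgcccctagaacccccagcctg
Pmp22, chr11:63128732-63129031, plus strand: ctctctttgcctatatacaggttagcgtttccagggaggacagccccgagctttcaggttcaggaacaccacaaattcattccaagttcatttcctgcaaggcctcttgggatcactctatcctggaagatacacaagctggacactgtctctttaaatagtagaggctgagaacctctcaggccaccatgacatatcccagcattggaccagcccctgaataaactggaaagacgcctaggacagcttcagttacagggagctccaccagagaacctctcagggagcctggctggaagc
Mag, chr7:30914814-30915113, minus strand: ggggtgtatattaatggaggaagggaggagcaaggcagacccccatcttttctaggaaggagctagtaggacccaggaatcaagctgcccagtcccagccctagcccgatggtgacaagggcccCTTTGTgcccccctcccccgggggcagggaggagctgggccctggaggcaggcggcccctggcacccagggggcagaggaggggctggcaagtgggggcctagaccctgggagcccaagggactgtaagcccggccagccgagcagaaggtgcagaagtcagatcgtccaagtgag
Cnp, chr11:100574689-100574988, plus strand: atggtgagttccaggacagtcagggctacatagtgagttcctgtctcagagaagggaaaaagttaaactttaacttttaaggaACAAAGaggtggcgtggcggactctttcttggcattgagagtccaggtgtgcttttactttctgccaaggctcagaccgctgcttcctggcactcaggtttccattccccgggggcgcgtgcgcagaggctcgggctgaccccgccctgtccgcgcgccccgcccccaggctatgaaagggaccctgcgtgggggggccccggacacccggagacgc
SOX letters were present in 3 of the 11 windows (27.3%), namely Cnp and a pair of overlapping Mag windows that share the same match, against 28.6% of all 32851 windows. EGR letters were in 0 of the 11, against 5.55% of all windows. A match is only a run of letters, and a window without one says nothing of the factor.

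The genes differed widely in level. Per kilobase of merged exons and over all 6 libraries, Pmp22, a membrane protein of compact myelin that many other cells make too, was highest at 35.0 ± 4.50 CPM per kilobase (mean ± SD). Cnp, an enzyme of non-compact myelin that is also made outside glia, followed at 4.73 ± 0.732 CPM per kilobase. The range of Pmp22 lay wholly above that of Cnp, and the range of Cnp wholly above those of the other 6. Prx (1.35 ± 0.304 CPM per kilobase), S100b (1.17 ± 0.381), Sox10 (1.16 ± 0.365), Mbp (0.829 ± 0.272) and Mal (0.794 ± 0.362) came next, and each overlapped its neighbour in this order. Mag was lowest at 0.321 ± 0.0845 CPM per kilobase and overlapped Mal. The order from Prx to Mal depends on the length used: per kilobase of the longest transcript, Mbp (1.46) came before Prx (1.39).

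None of the 8 genes passed the test between groups, while the fitted change was below 0 for 7 of them, Sox10 being the exception. The quasi-likelihood test of edgeR was run on 16259 genes and its p-values were adjusted by Benjamini-Hochberg. Of all genes 0.0738% passed at an adjusted p under 0.05, 0.0554% lower and 0.0185% higher in glycerol+melatonin. DESeq2 passed 5.01% of the 15011 genes to which it gave an adjusted p. It also passed 0 of the 8, the lowest adjusted p being 0.0794 for Mal. At an unadjusted p under 0.05 in edgeR stood 2 of the 8 (Mal and Mbp, both lower), against 19.5% of all genes, 9.39% lower and 10.1% higher. The groups did not overlap for 2 of the 8 (Mal and Pmp22, both lower in glycerol+melatonin), against 26.0% of all genes, 12.5% lower. Both counts of the 8 are near the background. Below 0 were 7 of 8, against 48.3% of all genes, and the median log2 fold change was -0.37 for the 8 and 0.02 for all genes. This lean was not particular to the 8. Below 0 were also 6 of 6 macrophage (median -0.23), 6 of 7 muscle fibre (-0.25) and 5 of 6 fat cell markers (-0.43). Endothelial markers had 4 of 7 below 0 and markers of fibro-adipogenic progenitors 4 of 8. A gene that misses the threshold is not thereby shown to be alike in both groups, and the intervals given with each gene are wide.

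**Figure D1:**
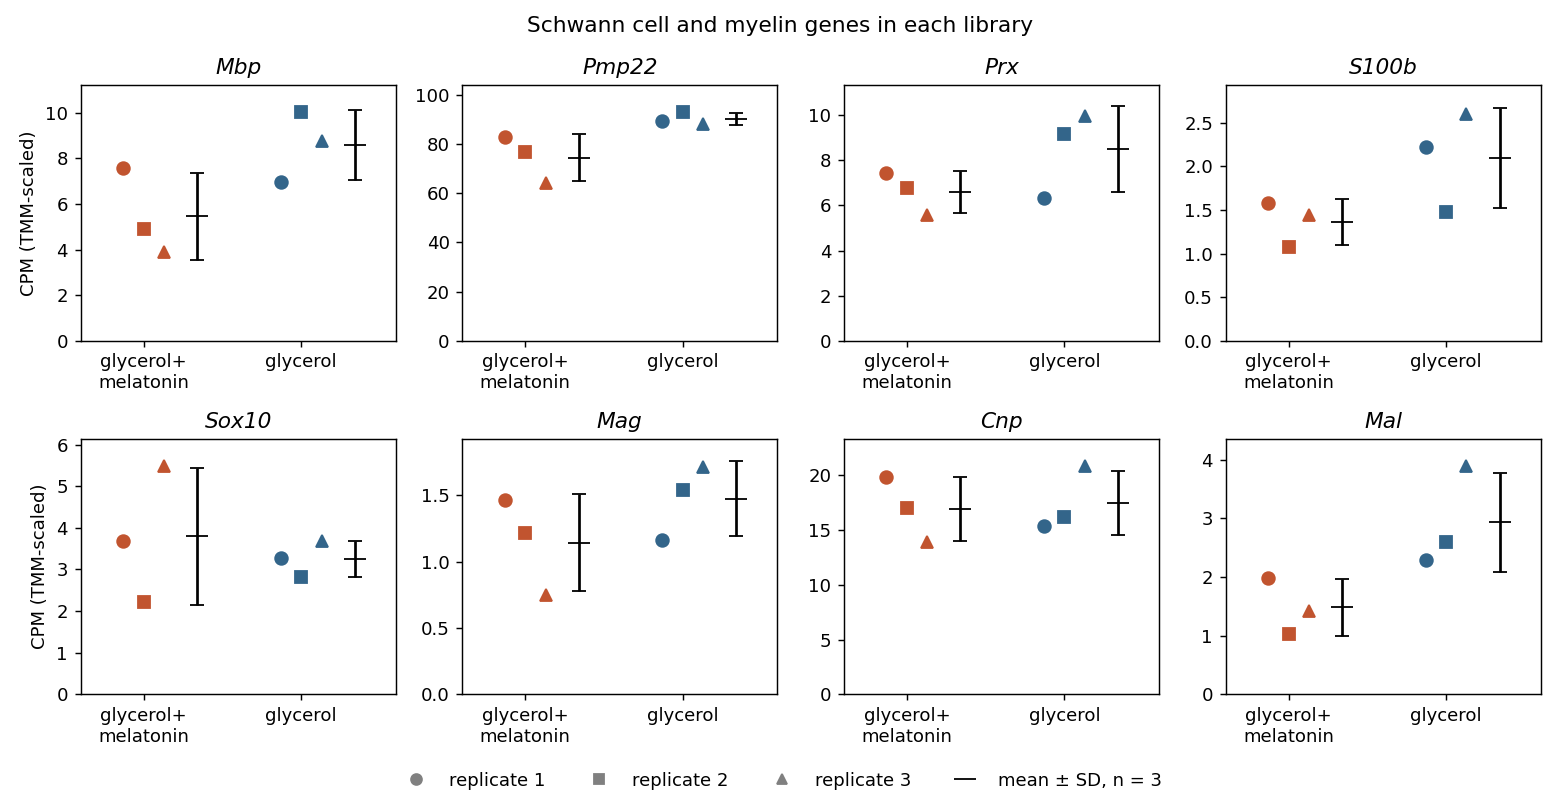
Level of each of the 8 genes in each library, in TMM-scaled CPM on axes that start at 0; symbols are replicates 1 to 3 of each group and black marks are the mean ± SD of 3 mice. For Mal and Pmp22 the 3 glycerol+melatonin libraries lie below the 3 glycerol libraries, and for Sox10 glycerol+melatonin replicate 3 lies above all others.

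Positions are those of GENCODE M21 on GRCm38. Among the proteins of the myelin membrane, Mal (ENSMUSG00000027375, chr2:127633226-127656695, minus strand), a lipid raft protein of myelin and of some epithelia, had the largest fitted difference. It was at 1.99, 1.03 and 1.43 CPM (87, 56 and 67 counts) in glycerol+melatonin libraries 1 to 3, against 2.30, 2.60 and 3.90 CPM (93, 113 and 159 counts) in glycerol libraries 1 to 3. Every glycerol+melatonin library was below every glycerol library, and glycerol replicate 3 was the highest. The means were 1.48 ± 0.479 CPM in glycerol+melatonin and 2.93 ± 0.848 CPM in glycerol (SD, n = 3 each), and the log2 fold change was -0.99 ± 0.32 (SE; 95% interval -1.73 to -0.25 before adjustment; edgeR adjusted p = 0.185). Of 6 fat cell genes with a row, 5 (Adipoq, Plin1, Cidec, Retn and Cfd) were likewise highest in glycerol replicate 3. So were 5 of 6 macrophage markers and 5 of the 8 genes described here. The fat cell list had 7 genes, Lep having no row. It summed to 418.2 to 736.0 CPM in glycerol+melatonin and 510.8 to 644.9 CPM in glycerol libraries. Most of this sum was Plin4, which muscle fibres also make. Adipoq was at 18.4, 9.65 and 6.02 CPM in glycerol+melatonin and 10.6, 5.18 and 37.8 CPM in glycerol. Glycerol replicate 2, with the least Adipoq, had more Mal than glycerol replicate 1. Glycerol+melatonin replicate 1, with the second most Adipoq, had less Mal than any glycerol library. The part of fat cells in the level of Mal was not tested. Without glycerol replicate 3, the log2 fold change of Mal was -0.72.

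Mbp (ENSMUSG00000041607, chr18:82475146-82585637, plus strand), which encodes the basic protein that seals the inner faces of the myelin membrane, was at 7.58, 4.91 and 3.89 CPM in glycerol+melatonin libraries, against 6.97, 10.02 and 8.77 CPM in glycerol libraries. Glycerol+melatonin replicates 2 and 3 were the lowest of all 6, while replicate 1 lay above glycerol replicate 1, so the groups overlapped. The means were 5.46 ± 1.91 CPM in glycerol+melatonin and 8.58 ± 1.53 CPM in glycerol, and edgeR fitted a log2 fold change of -0.65 ± 0.27 (adjusted p = 0.243). Its interval of 95% ran from -1.28 to -0.03 before adjustment. The value was -0.96 without glycerol+melatonin replicate 1 and -0.46 without its replicate 3.

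Pmp22 (ENSMUSG00000018217, chr11:63128982-63159547, plus strand) had the smallest spread over the 6 libraries of the 8 genes, with a coefficient of variation of 12.9%. It was at 82.8, 76.7 and 64.1 CPM in glycerol+melatonin libraries and at 89.4, 92.9 and 88.0 CPM in glycerol libraries, so the groups did not overlap. The means of 74.5 ± 9.54 CPM in glycerol+melatonin and 90.1 ± 2.54 CPM in glycerol were -0.27 ± 0.15 apart on the fitted log2 scale (edgeR adjusted p = 0.348). This value depends on scaling: with library size alone it was -0.07, and the median of all genes then stood at 0.23, so that Pmp22 lay -0.30 from that median, against -0.29 with TMM factors. Fibroblasts are known to make Pmp22 too. The list of fibro-adipogenic progenitors, the stromal cells of muscle (8 of 8 with a row), summed to 2288 to 3037 CPM in glycerol+melatonin and 3439 to 3831 CPM in glycerol libraries. Most of that sum was Col1a1, at 1396, 1895 and 2194 CPM in glycerol+melatonin and 2865, 2197 and 2136 CPM in glycerol. Of these stromal genes 4 were above 0 (up to 0.19, Cd34) and 4 below. Those below were Dcn (log2 fold change -0.81 ± 0.21), Pdgfra (-0.71 ± 0.22), Lum (-0.58 ± 0.26) and Col1a1 (-0.39 ± 0.24). For Dcn and Pdgfra the groups did not overlap, lower in glycerol+melatonin like Pmp22, as for 12.5% of all genes. Over the 8 stromal genes the mean centred log2 CPM overlapped, at -0.21, 0.04 and -0.18 in glycerol+melatonin and -0.12, 0.18 and 0.29 in glycerol. The part of these cells in the level of Pmp22 was not tested.

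Mag (ENSMUSG00000036634, chr7:30899176-30914873, minus strand), an adhesion protein at the face of myelin next to the axon, had few reads, 64, 66 and 35 counts in glycerol+melatonin and 47, 67 and 70 counts in glycerol libraries. In CPM it was at 1.46, 1.22 and 0.745 in glycerol+melatonin and at 1.16, 1.54 and 1.71 in glycerol. The groups overlapped, with glycerol+melatonin replicate 3 lowest. The log2 fold change of Mag was -0.37 ± 0.33 (edgeR adjusted p = 0.549), and -0.13 without that replicate. Cnp (ENSMUSG00000006782, chr11:100574904-100591729, plus strand) was at 19.8, 17.0 and 13.9 CPM in glycerol+melatonin and at 15.4, 16.2 and 20.9 CPM in glycerol libraries. These ranges overlapped over most of their length. The log2 fold change of Cnp was -0.05 ± 0.20 (edgeR adjusted p = 0.918) with an interval from -0.49 to 0.40, which leaves room for a change of 0.710-fold or 1.32-fold. With library size alone it was 0.14, the other direction, and it lay -0.09 from the median of all genes. Cnp shares 154 exon bases with Dnajc7 on the other strand, and no source used here says whether reads were counted by strand.

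Prx (ENSMUSG00000053198, chr7:27499324-27520214, plus strand) encodes periaxin, which ties the outer Schwann cell membrane to its cytoskeleton through Drp2, and it is also made by some endothelium. It was at 7.42, 6.75 and 5.60 CPM in glycerol+melatonin libraries, against 6.35, 9.17 and 9.97 CPM in glycerol libraries. Glycerol replicate 1 lay within the range of glycerol+melatonin and the other glycerol libraries lay above it. The log2 fold change was -0.37 ± 0.22 (edgeR adjusted p = 0.387). Drp2, which was chosen after its values were seen, was at 7.61, 4.13 and 11.2 CPM in glycerol+melatonin and 7.51, 6.45 and 5.27 CPM in glycerol. Partners in the same complex thus had opposite extremes in glycerol+melatonin replicate 3, where Prx was lowest and Drp2 highest. Prx shares 300 exon bases with the antisense gene Gm15541, which has no row. Endothelial markers (7 of 7 with a row) summed to 751.7 to 1260 CPM in glycerol+melatonin and 835.3 to 1008.5 CPM in glycerol libraries, with the highest sum in glycerol+melatonin replicate 3, the library where Prx was lowest; their part in the level of Prx was not tested.

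S100b (ENSMUSG00000033208, chr10:76253853-76261159, plus strand), a calcium-binding protein of Schwann cells that fat cells also make, was at 1.58, 1.07 and 1.45 CPM in glycerol+melatonin and at 2.22, 1.47 and 2.60 CPM in glycerol libraries. Of the glycerol libraries only replicate 2 lay within the range of glycerol+melatonin. The log2 fold change was -0.62 ± 0.30 (edgeR adjusted p = 0.293), from 58 to 69 counts per glycerol+melatonin library and 64 to 106 counts per glycerol library. Like Mal, S100b was highest in glycerol replicate 3, the library with most Adipoq. Glycerol+melatonin replicate 1, next in Adipoq at 18.4 CPM, had less S100b than glycerol replicate 1, with Adipoq at 10.6 CPM. The part of fat cells was not tested.

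Sox10 (ENSMUSG00000033006, chr15:79154908-79165240, minus strand), the transcription factor that Schwann cells need at every stage, did not follow the myelin genes. It was at 3.68, 2.21 and 5.49 CPM (161, 120 and 258 counts) in glycerol+melatonin libraries, against 3.29, 2.81 and 3.67 CPM (133, 122 and 150 counts) in glycerol libraries. Glycerol+melatonin held both the highest library, replicate 3, and the lowest, replicate 2. The log2 fold change of Sox10 was 0.22 ± 0.33 (edgeR adjusted p = 0.742) with an interval from -0.53 to 0.96, and it was -0.14 without glycerol+melatonin replicate 3, so its direction rested on that library.

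**Figure D2:**
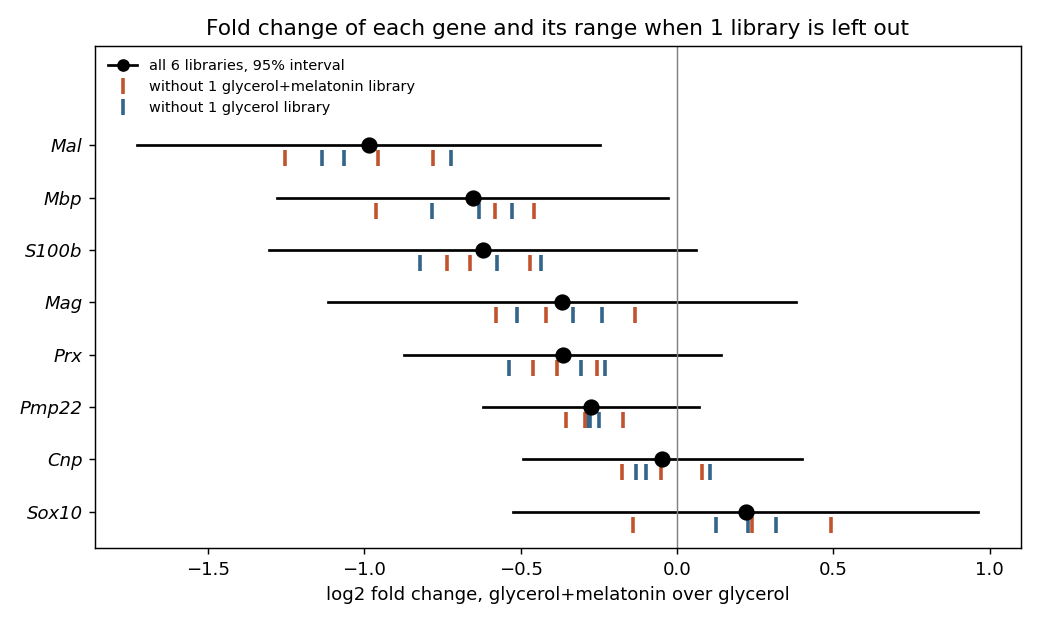
Log2 fold change of each gene, glycerol+melatonin over glycerol, from the fit on all 6 libraries (points, with 95% intervals before adjustment) and from fits that leave out 1 library (ticks, coloured by the group that lost it). Mal, Mbp, S100b, Mag, Prx and Pmp22 stay below 0 in all 6 such fits, while Cnp and Sox10 lie on both sides of 0.

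The joint level of the 8 genes was then set side by side per library, as the mean over the 8 genes of log2 CPM minus each gene's mean over the 6 libraries. It was 0.08, -0.36 and -0.32 in glycerol+melatonin replicates 1 to 3, against 0.03, 0.15 and 0.41 in glycerol replicates 1 to 3. By these 8 genes glycerol+melatonin replicates 2 and 3 were the lowest libraries and glycerol replicate 3 the highest, while both replicates 1 lay close together. Other nerve lists ranked the libraries differently. The same mean over Schwann cell transcription factors and receptors was -0.13, -0.10 and 0.17 in glycerol+melatonin and 0.04, 0.16 and -0.14 in glycerol. Over genes of non-myelinating and repair Schwann cells it was -0.03, 0.11 and 0.31 in glycerol+melatonin and -0.22, -0.15 and -0.01 in glycerol. Over axon genes it was -0.04, 0.01 and 0.32 in glycerol+melatonin and -0.12, -0.07 and -0.10 in glycerol. Glycerol+melatonin replicate 3 was thus the highest library by these 3 lists, for the first of them only just above glycerol replicate 2 (0.17 against 0.16). By the transcription factors and receptors glycerol+melatonin replicate 1 and glycerol replicate 3 were the lowest and nearly equal. Over genes of the node of Ranvier and its flanks it was -0.07, -0.32 and 0.06 in glycerol+melatonin and 0.20, 0.11 and 0.02 in glycerol. Over genes of the perineurium it was -0.15, -0.24 and 0.02 in glycerol+melatonin and -0.15, 0.26 and 0.26 in glycerol. By both of these lists glycerol+melatonin replicate 2 was the lowest library, and replicate 3 was not the highest. The means of the 8 genes were -0.20 ± 0.24 in glycerol+melatonin and 0.20 ± 0.20 in glycerol (SD, n = 3 each). Their difference was -0.40 on the log2 scale, for which no test was made, as it is a score over listed genes. By single genes, glycerol+melatonin replicate 3 was lowest for 5 of 8 (Mbp, Pmp22, Prx, Mag and Cnp) and replicate 2 for the other 3, and glycerol replicate 3 was highest for 5 of 8. The mean over Mbp, Prx, Mag and Sox10 alone was 0.13, -0.31 and -0.30 in glycerol+melatonin and -0.08, 0.22 and 0.34 in glycerol. With plain library size the glycerol+melatonin values were 0.03, -0.19 and -0.13 and the glycerol values -0.17, -0.02 and 0.47, and the groups overlapped further, with glycerol replicate 1 near glycerol+melatonin replicates 2 and 3.

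Other genes of peripheral myelin gave a smaller difference. Of 20 listed, 19 had a row (Gjb1 had none), 0 passed in either direction by edgeR or DESeq2, 9 were above 0 and 10 below, and the median log2 fold change was -0.15. At an unadjusted p under 0.05 in edgeR stood 2 of the 19, against 19.5% of all genes. These were Fa2h, lower in glycerol+melatonin (log2 fold change -1.04 ± 0.37), and Sh3tc2, higher (0.44 ± 0.18). Their mean per library was 0.16, -0.18 and -0.18 in glycerol+melatonin and -0.12, 0.11 and 0.21 in glycerol, a difference of -0.13. The low value of glycerol+melatonin replicate 3 rested on Pmp2, a fatty acid-binding protein of myelin. Pmp2 had 91, 69 and 0 counts in glycerol+melatonin and 8, 50 and 96 counts in glycerol libraries. It shares 1224 of its 1408 exon bases with Gm37389, a protein-coding gene on the same strand that has no row, so its value is uncertain. Without Pmp2 the means were 0.08, -0.25 and 0.030 in glycerol+melatonin and -0.05, 0.07 and 0.12 in glycerol, a difference of -0.092, and glycerol+melatonin replicate 3 lay above glycerol replicate 1. The summed CPM of the 19 genes was 270.6, 230.1 and 291.3 in glycerol+melatonin and 256.0, 268.5 and 274.0 in glycerol, highest in glycerol+melatonin replicate 3. The most abundant of the list, none restricted to Schwann cells, were the tetraspanin Cd9 (log2 fold change 0.28 ± 0.19), the stress-responsive gene Ndrg1 (0.32 ± 0.27) and the scaffold gene Mpp6 (-0.35 ± 0.15).

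**Figure D3:**
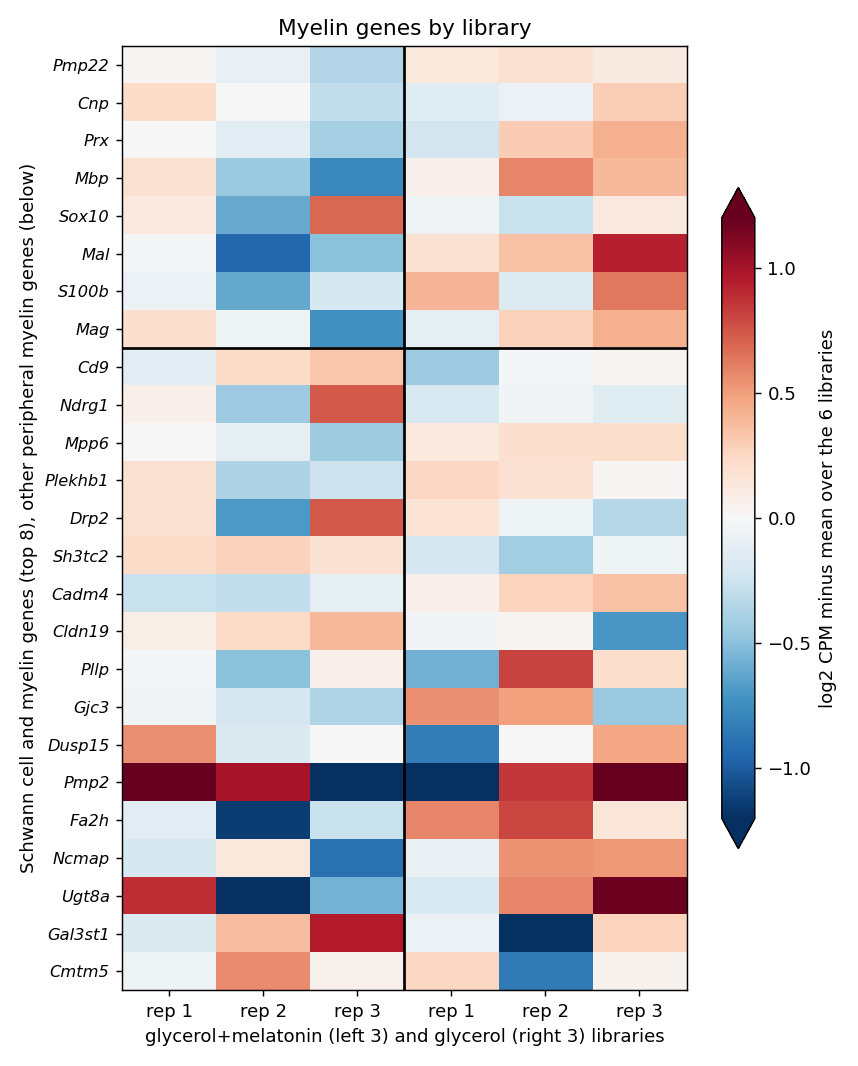
Log2 CPM of the 8 genes (above the line) and 17 other peripheral myelin genes (below it), minus each gene's mean over the 6 libraries, with glycerol+melatonin libraries on the left and glycerol libraries on the right; colours saturate at the ends of the scale. Glycerol+melatonin replicate 3 is blue for Mbp and Mag and red for Sox10, Drp2, Ndrg1 and Gal3st1.

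Ratios between genes of the same library do not depend on scaling, and the 5 given here were chosen after the values had been seen. Mbp counts per Sox10 count were 2.06, 2.22 and 0.709 in glycerol+melatonin, against 2.12, 3.57 and 2.39 in glycerol libraries. Prx counts per Sox10 count showed the same low library at 2.02, 3.05 and 1.02 in glycerol+melatonin, against 1.93, 3.26 and 2.71 in glycerol. Glycerol+melatonin replicate 3 thus had fewer Mbp and Prx counts for its Sox10 counts than any other library, while the groups overlapped for both ratios. Mag per Mbp was 0.193, 0.248 and 0.191 in glycerol+melatonin, against 0.167, 0.154 and 0.196 in glycerol. Mal per Mbp was 0.262, 0.211 and 0.366 in glycerol+melatonin, against 0.330, 0.260 and 0.444 in glycerol, and the groups overlapped for these ratios too. Cnp per Mbp was 2.61, 3.47 and 3.57 in glycerol+melatonin, above the 2.21, 1.62 and 2.38 of glycerol. Cnp per Mbp was the 1 ratio of the 5 whose groups did not overlap, and no test was made on them.

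**Figure D4:**
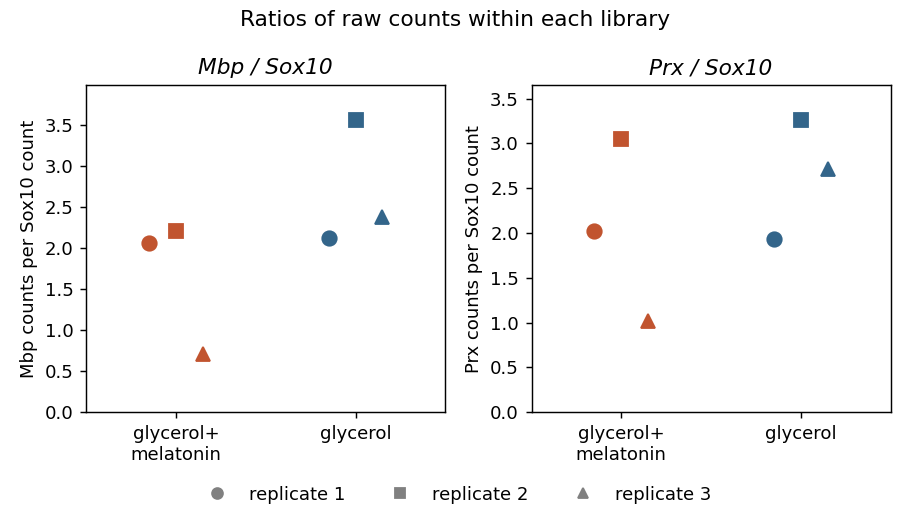
Raw counts of Mbp and Prx per Sox10 count in each library, on axes that start at 0, with symbols for replicates 1 to 3 of each group. Glycerol+melatonin replicate 3 is the lowest library in both panels, at 0.709 for Mbp and 1.02 for Prx.

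Genes that steer Schwann cells did not pass either, by edgeR or DESeq2. Of 11 transcription factors and receptors, 10 had a row, 0 passed by edgeR, 4 were above 0 and 6 below, and the median log2 fold change was -0.07. Nab2, a co-regulator of Egr2, was the one whose groups did not overlap and the one with an unadjusted p under 0.05, at 18.8, 18.3 and 25.1 CPM in glycerol+melatonin and 13.7, 15.1 and 14.6 CPM in glycerol (0.52 ± 0.17, edgeR adjusted p = 0.187). Over all genes the groups did not overlap for 26.0%, and 19.5% had an unadjusted p under 0.05. Nab1 was at -0.33 ± 0.18 and the neuregulin receptor subunit Erbb2 at 0.18 ± 0.20 on the log2 fold change scale. Of 10 genes of the node of Ranvier and its flanks, 6 had a row, 0 passed by either tool, and 2 were above 0. Of the 6, 1 (Cadm3) had an unadjusted p under 0.05, against 19.5% of all genes. The 3 most abundant of these were Cadm3 (log2 fold change -1.11 ± 0.37, edgeR adjusted p = 0.187), Gldn (0.51 ± 0.30) and Cntnap1 (0.33 ± 0.22). Cadm3 shares 361 exon bases with Ackr1 on the same strand, so its value is uncertain.

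Of 13 listed genes of non-myelinating and repair Schwann cells, 10 had a row (Gfap, Shh and Olig1 had none). Of these, 7 were above 0 and 3 below, against 8404 above 0 among all 16259 genes tested. None passed by edgeR or DESeq2, and the median log2 fold change was 0.19, against 0.02 for all genes. At an unadjusted p under 0.05 stood 2 of the 10, Gdnf and Artn, against 19.5% of all genes, which is near the background. The growth factor Gdnf was at 4.45, 5.06 and 6.70 CPM in glycerol+melatonin and 3.53, 2.67 and 3.72 CPM in glycerol (0.71 ± 0.24, edgeR adjusted p = 0.187). Its relative Artn was at 0.754, 0.609 and 1.09 CPM in glycerol+melatonin and 0.247, 0.230 and 0.539 CPM in glycerol (1.26 ± 0.45, edgeR adjusted p = 0.198). Both were named after their values were seen, and for both the groups did not overlap, higher in glycerol+melatonin, as for 13.6% of all genes. The most abundant of the list are used by many cells of muscle: Jun (log2 fold change 0.35 ± 0.19), Mcam (0.32 ± 0.17) and Ncam1 (0.27 ± 0.25).

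Most listed axon genes were absent from the deposited count table, which does not show their level in the tissue. Of 13 axon and neuron genes, 8 had no row, among them the neurofilament genes Nefl, Nefm and Nefh and the cholinergic genes Chat, Slc18a3 and Slc5a7. Uchl1, a ubiquitin hydrolase of neurons that muscle can also make, was at 15.5, 19.8 and 13.2 CPM in glycerol+melatonin, above the 7.88, 6.24 and 11.05 CPM of glycerol (log2 fold change 0.95 ± 0.25, edgeR adjusted p = 0.148). Uchl1 did not pass by edgeR and passed by DESeq2 (adjusted p = 0.0224). Stmn2 (0.26 ± 0.27) and Prph (-0.05 ± 0.31) did not pass by either tool on the log2 fold change scale. Of 3 genes of the perineurium, the sheath around nerve bundles, Cldn1 was at 2.38, 2.01 and 1.11 CPM in glycerol+melatonin and 2.45, 4.01 and 4.48 CPM in glycerol (-0.99 ± 0.35, edgeR adjusted p = 0.194), Itgb4 at 0.20 ± 0.33 and Slc2a1 at 0.19 ± 0.18. Macrophage markers (6 of 6 with a row), cells that clear myelin after nerve damage, summed to 340.5 to 534.0 CPM in glycerol+melatonin and 400.1 to 573.1 CPM in glycerol libraries; 0 of 6 passed by edgeR or DESeq2, and 0 of 6 had an unadjusted p under 0.05.

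The genes whose pattern over the 6 libraries was most like the mean of the 8 were Gna11, Pgm5, Ntn4, Zfp870 and Pacs2, with Pearson's r from 0.977 to 0.996 on log2 CPM. Most like Mbp were Ahcy, Acot2, Mtrr, Iars2 and Mlec, with r from 0.989 to 0.997. These are the highest of 12627 genes searched over only 6 libraries, which share the split into groups, so the values describe likeness and were not tested. None of these 10 is on the myelin, Schwann cell or axon lists. Genes of the other peripheral myelin list ran both ways against the mean of the 8. Mpp6 was at r = 0.840 and Pmp2 at 0.565, while Cd9 was at -0.497 and Sh3tc2 at -0.561. Cldn19, a tight junction gene of myelin, was the lowest of that list at r = -0.881.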

How the data were processed

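RNA-seq was done on 6 muscles, 3 per group. Raw counts per Ensembl gene were deposited by the authors as 1 table (16289 rows, smallest row total 28, 16203 rows with a count in every library). The submitters' processing notes name mm10 and, in no stated order, DESeq2 1.12.4, StringTie 1.3.3b, HISAT2 2.0, Trimmomatic 0.36, bedtools 2.26.0 and FastQC 0.11.2; no source used here names the counting tool, annotation or strand setting. Columns were matched to samples by name.

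Symbols, exon lengths and overlaps came from GENCODE M21 on GRCm38, the assembly of mm10 (16260 genes matched). The main test was edgeR 4.0.16 (R 4.3.3) with TMM factors and filterByExpr, on all 6 libraries with no covariate, at an adjusted p under 0.05. Standard errors are the log2 fold change over the square root of F. Log2 CPM used a prior count of 2. Alternatives were RLE, upper quartile or no factors, no filter or 1 CPM in 3 libraries, DESeq2 1.42.0, limma-voom (limma 3.58.1), a replicate block, an offset for transcript length, a threshold of 0.1, and each library left out. Scripts were tested on simulated data. Libraries of a group differed far beyond counting noise, with a chi-square of 65.9 to 181 for each degree of freedom, and all 6 were kept as separate samples. Replicates are called biological in the series' text.

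The 8 genes and the lists were chosen with earlier results of these data known. Named genes were the 8, the 3 most abundant of each nerve list, list genes that passed, the 5 most like the mean of the 8, the 5 most like Mbp, and genes sharing exon bases with the 8. Other genes given with values (Adipoq, Plin4, Col1a1, Dcn, Pdgfra, Lum, Cd34, Pmp2, Pmel, Cldn19, Fa2h, Sh3tc2, Drp2, Gdnf and Artn) are list members or markers named after their values were seen. Some listed genes are not reported here.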

Additional observations from a re-analysis of the deposited data

How the results depend on the processing

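None of the 8 genes passed under any of the 15 other fits: factors, filters, DESeq2, limma-voom, the replicate block, the length offset and each library left out. The lowest adjusted p was 0.0794, for Mal by DESeq2. At a threshold of 0.1, applied to the edgeR result alone, 0 of the 8 passed. Mal, Mbp, S100b, Mag, Prx and Pmp22 kept their direction in all 15. Sox10 reversed to -0.14 without glycerol+melatonin replicate 3 (range with 1 library left out -0.14 to 0.49). Cnp reversed to 0.14 with library size alone, 0.10 without glycerol replicate 3 and 0.08 without glycerol+melatonin replicate 3 (range -0.18 to 0.10). The cause was not tested. The count of all genes that passed moved from 12 to 752 by DESeq2, 0 with the replicate block, 7 with the length offset, 59 at a threshold of 0.1, and 6 to 27 when 1 library was left out (6 without glycerol replicate 1, 27 without its replicate 3, 25 without glycerol+melatonin replicate 1 and 24 without its replicate 3). DESeq2 had 332 higher and 420 lower, against 3 and 9 by edgeR. By DESeq2, 1 axon gene (Uchl1) and 1 fibro-adipogenic progenitor marker (Dcn) passed, and in no other list did the count move. Same-numbered libraries did not deviate together (correlations -0.01, -0.01 and -0.05), so the numbers were not taken as pairs; with the replicate block 0 of the 8 genes passed. For glycerol replicate 1 the mean centred log2 CPM of the 8 genes moved from 0.03 to -0.17 with plain library size. The other peripheral myelin list in place of the 8 was an alternative chosen after seeing the data. With it the mean of glycerol replicate 3 was 0.21, against 0.41, and the difference between groups -0.13, against -0.40. With that list less Pmp2, also chosen after seeing the data, glycerol+melatonin replicate 3 was at 0.030, against -0.32, glycerol replicate 3 at 0.12 and the difference -0.092. For the 8 genes, leaving out 1 library gave differences from -0.54 to -0.29. Library size alone moved the median of all genes to 0.23 on the log2 scale. Depth limits Mag, Mal and S100b most, with 35 to 159 counts per library.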
